A study of Mus musculus with 16 samples.

Results

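The nuclear genes for the structural subunits of the oxidative phosphorylation machinery were followed in macrophages sorted from mouse muscle. Members were the rows of the count table whose symbol begins with Ndufa, Ndufb, Ndufc, Ndufs, Ndufv, Uqcr or Atp5, or with Cox and a digit of 4 to 8, together with Cyc1. Ndufaf assembly factors, processed pseudogenes and rows without a read were left out. The rule matched 82 symbols, of which Cox7b2, Cox8c and Ndufs5 had no read in any library, and left 79 of the 24421 symbols in the table. For Ndufs5 a loss in counting and an absent transcript cannot be told apart. These were 35 genes of complex I, 9 of complex III, 16 of complex IV, with Ndufa4 placed there, and 15 of complex V. Another 4 genes share the name pattern without being core subunits of the complex they are named after (Ndufa4l2, Cox7a2l, Atp5s and Atp5sl) and were kept apart.

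RNA was sequenced in 16 libraries of F4/80+ muscle macrophages, in 4 groups of 4: GLUD1 KO and WT cells of CTX injected muscle, and GLUD1 KO and WT cells of normal muscle. The design text places the injected samples at the height of muscle damage, and gives M1, M2 and wound healing genes as the object of the study. The agent behind the letters CTX, the time after injection, the allele and any Cre driver of the knockout, the strain, the age of the mice and whether a library is 1 mouse are not given in the sources used here. All p-values therefore measure the spread between libraries, which may be technical. Library totals were 17051892 to 23097420 counts. All 13 pan-macrophage markers (Adgre1, Csf1r, Cd68 and others) were detected in every group, at a summed 25767 to 30613 depth-scaled counts (CPM) in KO CTX, 33443 to 40135 CPM in WT CTX, 15965 to 21901 CPM in KO normal and 17875 to 26104 CPM in WT normal libraries. Glud1, the targeted gene, had 339 ± 10.5 CPM in KO CTX and 373 ± 19.9 CPM in WT CTX libraries, and 239.9 ± 25.3 CPM in KO normal and 256 ± 30.3 CPM in WT normal ones (SD over 4 libraries), so that whole-gene reads did not separate the genotypes (edgeR adjusted p = 0.936 in CTX and 0.991 in normal muscle). Libraries KO normal 5, WT normal 5 and WT normal 6 carried Xist and almost no Y-linked reads, unlike the other 13, and KO normal 5 and WT normal 6 also had 7304 and 6966 CPM of the nuclear RNA Malat1, against 745 to 2567 CPM elsewhere.

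Oxidative phosphorylation moves electrons from NADH and succinate along complexes of the inner mitochondrial membrane to oxygen, and uses the proton gradient that results to make ATP. Complex I oxidises NADH, complex III passes electrons from ubiquinol to cytochrome c, complex IV reduces oxygen, and complex V is the ATP synthase. Most subunits are encoded in the nucleus, translated in the cytosol and imported, while a few come from mitochondrial DNA and are not part of the set. In macrophages the pathway is known for its link to the activation state: inflammatory activation by bacterial products favours glycolysis, and alternative activation favours respiration.

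Several transcription factors, among them NRF1, GABPA (NRF2) and YY1, are known to bind promoters of respiratory chain genes, and the promoter windows show whether their core letters are there. RefSeq promoters (GRCm38.p6, 250 bases before to 50 after a start) were matched to 65 of the 79 members, 3 of them by a synonym. All motifs were searched on both strands. The letters GCGCA, any base, then GCGC (NRF1), were in the promoters of 14 of the 65 members (21.5%) and of 5.19% of all 27025 genes. The letters CCGGAAGT (GABPA) were in 5 members (7.69%) against 4.31% of all genes, and AAGATGGCG (YY1) in 8 members (12.3%) against 1.64% of all genes. Among complex V genes, 6 of 14 (42.9%) held the NRF1 letters, and among complex IV genes 1 of 12 (8.33%). A member with 2 motifs counts for each of them in these shares. In all, 25 of the 65 members held at least 1 of the 3 motifs, each member counted once. The 250 bases before the start are shown for 4 members with a motif there, 1 from each complex, and for Ndufb10, the complex I gene that moved least with injury. Capitals mark the NRF1 letters in Atp5h (chr11:115419920-115420169, minus strand), Cox6a1 (chr5:115348959-115349208, minus strand) and Ndufs6 (chr13:73328483-73328732, minus strand), and the GABPA letters in Atp5h and Uqcr11 (chr10:80406822-80407071, minus strand). The NRF1 letters of Ndufs6 and the GABPA letters of Atp5h lie on the opposite strand, so the capitals there show their reverse complement. Ndufb10 (chr17:24724424-24724673, minus strand) has none of the 3 in this window.
Atp5h: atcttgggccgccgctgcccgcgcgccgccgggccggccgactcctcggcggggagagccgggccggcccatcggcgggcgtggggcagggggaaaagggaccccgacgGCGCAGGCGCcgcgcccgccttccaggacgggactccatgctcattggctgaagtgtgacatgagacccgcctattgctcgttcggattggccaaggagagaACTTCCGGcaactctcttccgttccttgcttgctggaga
Cox6a1: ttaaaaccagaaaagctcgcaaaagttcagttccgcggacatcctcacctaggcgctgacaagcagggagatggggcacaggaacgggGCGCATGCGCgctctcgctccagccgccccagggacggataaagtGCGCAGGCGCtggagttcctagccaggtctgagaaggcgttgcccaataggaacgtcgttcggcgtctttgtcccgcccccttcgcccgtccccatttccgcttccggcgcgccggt
Ndufs6: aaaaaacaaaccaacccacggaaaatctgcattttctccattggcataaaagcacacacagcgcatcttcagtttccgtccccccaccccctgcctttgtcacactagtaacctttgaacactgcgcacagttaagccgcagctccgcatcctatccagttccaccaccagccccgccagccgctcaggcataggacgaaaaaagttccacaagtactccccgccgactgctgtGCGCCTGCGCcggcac
Uqcr11: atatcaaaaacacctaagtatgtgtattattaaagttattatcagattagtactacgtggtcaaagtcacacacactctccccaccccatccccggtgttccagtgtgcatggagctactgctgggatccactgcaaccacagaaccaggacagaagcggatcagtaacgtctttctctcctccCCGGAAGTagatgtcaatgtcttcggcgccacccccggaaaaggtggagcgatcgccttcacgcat
Ndufb10: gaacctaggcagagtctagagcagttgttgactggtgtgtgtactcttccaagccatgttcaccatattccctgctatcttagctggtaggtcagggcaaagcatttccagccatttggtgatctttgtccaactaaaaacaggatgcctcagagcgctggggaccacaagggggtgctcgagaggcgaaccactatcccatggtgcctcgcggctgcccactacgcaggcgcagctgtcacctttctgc

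Nearly all subunit genes of the 4 complexes were higher in macrophages of CTX injected muscle than in those of normal muscle, in KO and in WT alike, and none was called different between KO and WT in either muscle. A total of 78 members passed the low-count filter, and only Cox8b did not. In KO, 68 members rose and 7 fell with injection (edgeR quasi-likelihood test with Benjamini-Hochberg adjustment over 13649 genes, threshold 0.05), where 33.3% of all genes rose and 40.2% fell. In WT, 70 members rose and 6 fell, where 33.3% of all genes rose and 39.4% fell. The same 68 genes rose in both genotypes, and the same 6 fell in both. The median log2 fold change of the members was 0.996 in KO and 1.008 in WT, against -0.16 and -0.15 over all genes. At least 2-fold rises were called for 39 members in KO, against 12.7% of all genes, and for 40 in WT, against 13% of all genes. CTX and normal libraries did not overlap for 68 rising members in KO (31.3% of all genes) and 69 in WT (30.6%). DESeq2 called 68 members higher in KO, against 32.5% of all genes called higher and 41.3% lower, and 70 in WT, against 32.8% higher and 40.7% lower. The KO and WT comparisons use separate libraries but share 1 fit and its scaling.

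These fold changes depend on how libraries are scaled. The TMM factors used here were 0.758 to 0.866 in CTX and 1.13 to 1.34 in normal libraries, and scaling by library totals alone moved the median of all genes by -0.61 in KO and -0.62 in WT (log2). On that scale 43 members rose and 9 fell in KO, where 14.1% of all genes rose and 61.5% fell, and 45 rose and 8 fell in WT, where 14.2% rose and 61.2% fell. Relative to the median of all genes, the members' median stood at 1.154 in KO with TMM and 1.14 with totals, and at 1.16 in WT with both. A change of scaling shifts all genes by nearly the same amount, so this gap stays nearly equal by construction. Sentences on rising genes below refer to the TMM scale, and name the genes whose direction differs with totals.

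**Figure D1:**
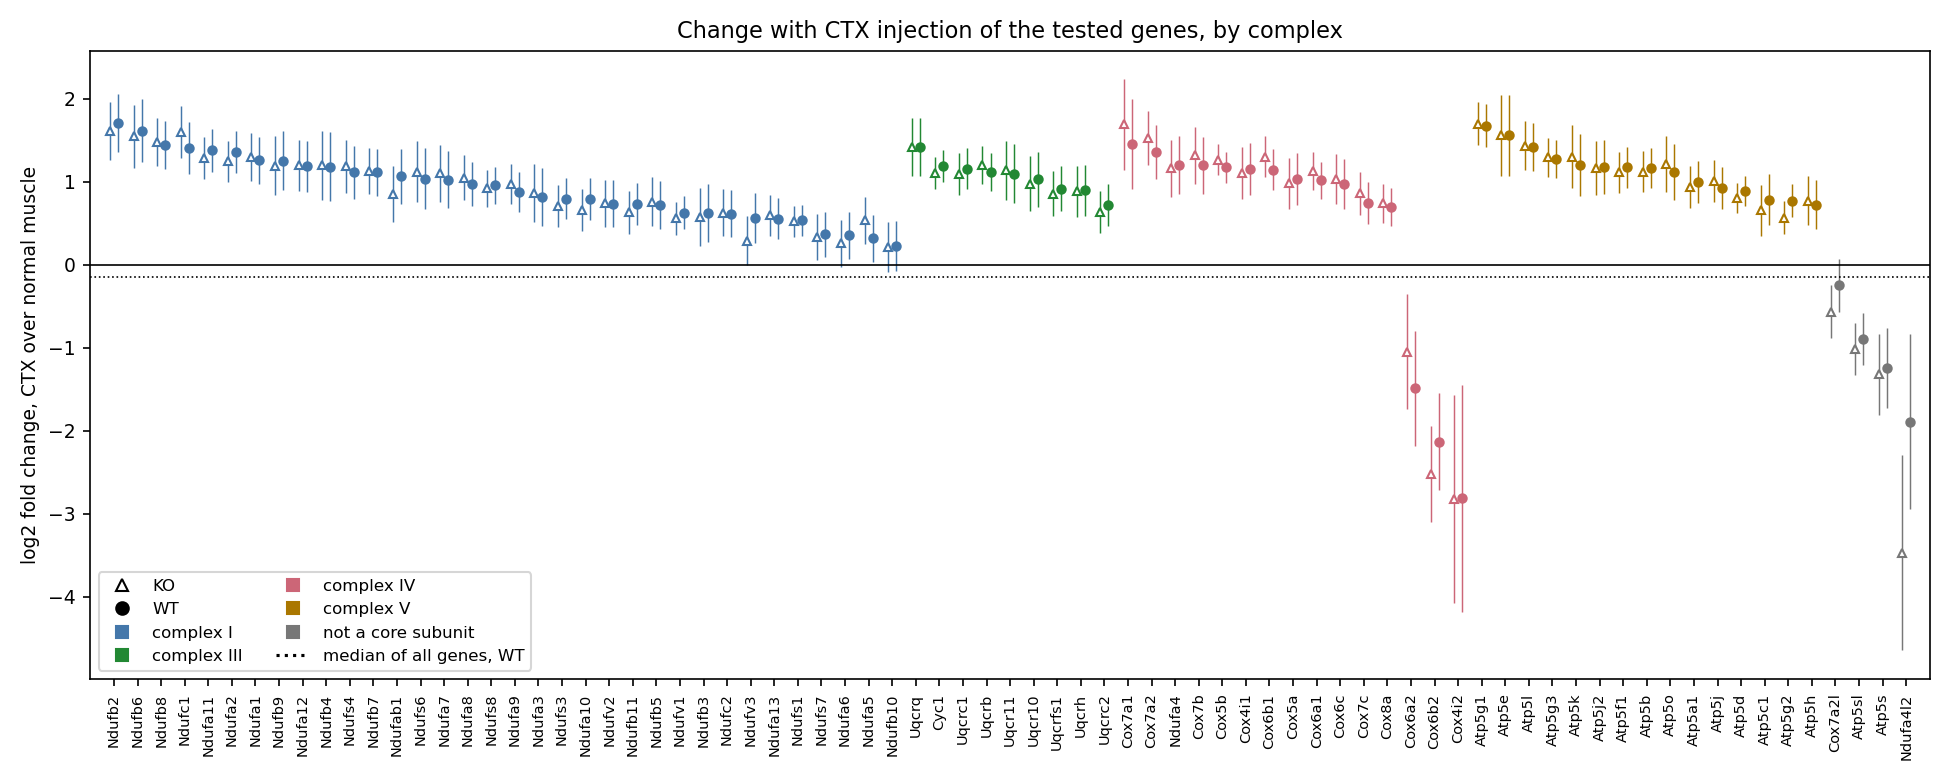
Log2 fold change of CTX over normal muscle for 77 of the 78 tested genes (TMM scale), grouped by complex and ordered by the WT value, with triangles for KO, circles for WT and bars for the 95% interval. Complexes I, III, IV and V lie above 0 except for Cox6a2, Cox6b2 and Cox4i2, and the 4 genes kept apart lie below 0.

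The summed level of the 75 genes of complexes I to V was 7488, 8114, 7441 and 7095 CPM in KO CTX, 7298, 7600.45, 7373 and 8089 CPM in WT CTX, 4255, 4040.1, 3705 and 3075 CPM in KO normal, and 4128, 3821, 3908 and 3064 CPM in WT normal libraries. Every CTX library lay above every normal library, and KO and WT overlapped within each muscle. The ratio of mean CTX to mean normal levels was 1.999 in KO and 2.035 in WT. As a share of all counts the genes held 0.628% ± 0.021 in KO CTX, 0.596% ± 0.0432 in WT CTX, 0.481% ± 0.0835 in KO normal and 0.449% ± 0.0639 in WT normal libraries (SD, n = 4 each), with ratios of 1.30 in KO and 1.33 in WT. The lowest CTX share, 0.559% in WT CTX, was just above the highest normal share, 0.558% in KO normal. For complex I alone the shares overlapped, at 0.148 to 0.159% in KO CTX, 0.134 to 0.162% in WT CTX, 0.104 to 0.154% in KO normal and 0.101 to 0.144% in WT normal libraries. By summed CPM, complex I differed least between CTX and normal muscle, 1.81 times in KO and 1.84 times in WT, against 2.03 and 2.103 times for complex III, 2.14 and 2.08 times for complex IV and 2.05 and 2.12 times for complex V.

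The lowest library of each normal group was one with a high Malat1 level. Of the 78 tested members, 55 had their lowest KO normal value in KO normal 5, and 72 had their lowest WT normal value in WT normal 6. Among CTX libraries, which ranged over 745 to 1142 CPM of Malat1, 62 members peaked in KO CTX 2 and 64 in WT CTX 4, the library with the least Malat1 in each group. In KO normal muscle, 56 members peaked in KO normal 1 and 11 in KO normal 2. The latter had the least Malat1 of its group, 869 CPM against 1120.5 CPM in KO normal 1. In WT normal muscle, 38 members peaked in WT normal 2, which had the least there (1383 CPM). Such counts were not made over all genes, so they do not tell members apart from whole libraries. The part of Malat1 in the levels was not tested. Among the 13 male libraries, which leave out KO normal 5 and both female WT libraries, 67 members rose in KO, where 32.2% of all genes did, and 68 in WT, where 29.7% did.

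**Figure D2:**
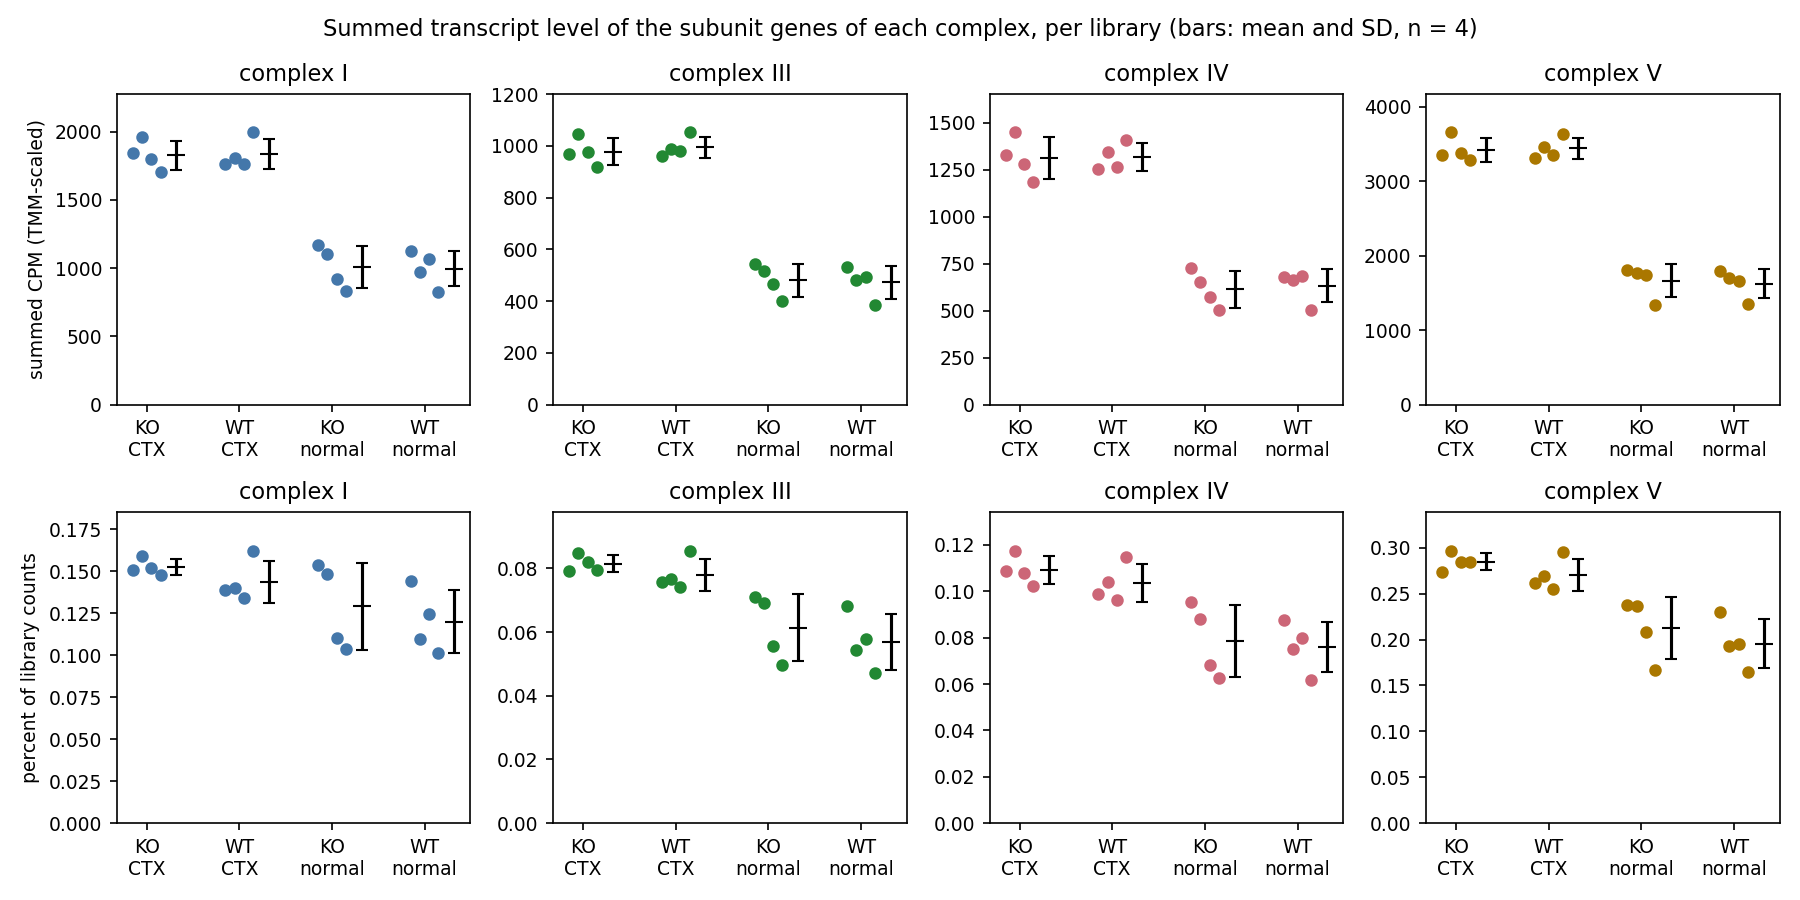
Summed level of the subunit genes of complexes I, III, IV and V in each library, in TMM-scaled CPM (top) and as a percentage of library counts (bottom), with the mean and SD of 4 libraries beside the points. On the CPM scale CTX libraries lie above all normal libraries in each complex, and for complex I the percentages overlap.

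In complex I, 32 of 35 genes rose in KO (median log2 fold change 0.87) and 34 of 35 in WT (0.88). The genes of the catalytic core, which bind NADH, the flavin and the iron-sulfur clusters, moved less than the accessory ones. All 7 core genes rose in both genotypes and none reached a 2-fold rise, with medians of 0.56 in KO and 0.63 in WT, whereas 15 of 28 accessory genes reached it in each genotype, with medians of 1.07 and 1.03. The difference between core and accessory genes is a description of the 2 groups of genes and was not tested.

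Ndufb2, an accessory subunit of the membrane arm, had 33.3, 34.1, 29.3 and 25.6 CPM in KO CTX and 12.2, 11.4, 8.96 and 7.50 CPM in KO normal libraries, and 33.8, 30.5, 32.6 and 33.9 CPM in WT CTX and 12.4, 9.29, 10.6 and 7.59 CPM in WT normal libraries. CTX and normal libraries were far apart in both genotypes. Its log2 fold change was 1.61 in KO (SE 0.16, edgeR adjusted p = 3.33e-07) and 1.71 in WT (SE 0.16, adjusted p = 1.77e-07). Ndufb6, its neighbour in the same arm, rose by 1.55 in KO and 1.61 in WT, but 39% of its exon bases overlap Smim27, and reads of the 2 genes may not be separable. In the matrix arm, the accessory genes Ndufa2 and Ndufa12 rose by 1.25 and 1.20 in KO and by 1.36 and 1.19 in WT (all 4 edgeR adjusted p at most 2.24e-06).

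Among the core genes, Ndufs8, which holds iron-sulfur clusters near the ubiquinone site, rose most, with a log2 fold change of 0.92 in KO and 0.96 in WT (SE 0.11 each, edgeR adjusted p = 1.06e-06 and 7.21e-07). Ndufs3, another core subunit of the matrix arm, rose by 0.71 and 0.80. Ndufv1, which binds the flavin that accepts electrons from NADH, rose by 0.56 and 0.63. Ndufs1, the largest iron-sulfur subunit, had 59.8 to 66.7 CPM in KO CTX and 37.4 to 48.6 CPM in KO normal libraries, and 61.7 to 65.8 CPM in WT CTX and 41.8 to 48.1 CPM in WT normal libraries, a log2 fold change of 0.52 in KO and 0.53 in WT (SE 0.09 each, edgeR adjusted p = 5.99e-05 and 4.88e-05). With library totals the value of Ndufs1 was below 0 in both genotypes, and that of Ndufv1 was below 0 in KO.

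Ndufs7, which carries the last cluster before ubiquinone, moved least of the core genes. It had 54.2, 58.3, 58.2 and 50.9 CPM in KO CTX and 49.6, 50.03, 39.5 and 36.7 CPM in KO normal libraries, and 49.1, 49.2, 50.9 and 60.4 CPM in WT CTX and 46.4, 36.9, 46.3 and 32.9 CPM in WT normal libraries. The lowest CTX value lay just above the highest normal one in each genotype, and the log2 fold change was 0.33 in KO (SE 0.13, edgeR adjusted p = 0.0284) and 0.37 in WT (SE 0.13, adjusted p = 0.0178). The call was lost in KO without KO CTX 2, KO CTX 3, KO normal 3 or KO normal 5 (adjusted p = 0.0647, 0.0647, 0.0916 and 0.119), and in WT without WT CTX 4, WT normal 3 or WT normal 6 (adjusted p = 0.0658, 0.0712 and 0.0927). With library totals its fold change was -0.29 in KO and -0.25 in WT.

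The accessory gene Ndufb10, whose protein faces the intermembrane space, was the only complex I member not called in either genotype. It had 38.4, 44.4, 35.2 and 36.0 CPM in KO CTX and 38.4, 38.2, 29.7 and 26.3 CPM in KO normal libraries, and 39.0, 42.4, 29.8 and 36.9 CPM in WT CTX and 34.5, 30.3, 35.5 and 26.3 CPM in WT normal libraries. The groups overlapped in both genotypes, with log2 differences of 0.21 in KO (95% interval -0.09 to 0.52, edgeR adjusted p = 0.185) and 0.23 in WT (-0.08 to 0.53, adjusted p = 0.164). Ndufa6, a matrix arm subunit, had a difference of 0.26 in KO (interval -0.02 to 0.54, adjusted p = 0.0912) and rose by 0.35 in WT (adjusted p = 0.0261). Ndufv3, another accessory subunit of that arm, had a difference of 0.29 in KO (interval -0.01 to 0.59, adjusted p = 0.0746) and rose by 0.56 in WT (adjusted p = 0.00223). The difference between the KO and WT changes was not called for either gene (-0.09 for Ndufa6, 95% interval -0.49 to 0.31, and -0.27 for Ndufv3, interval -0.69 to 0.16, edgeR adjusted p = 1 each). These calls rest on single libraries: Ndufa6 was lost in WT without WT CTX 4, WT normal 3, WT normal 5 or WT normal 6 (adjusted p = 0.0647 to 0.0922), and in KO it was called without KO normal 1 (0.39, adjusted p = 0.0134). Ndufv3 was called in KO without KO CTX 4 or KO normal 1 (0.37 each, adjusted p = 0.0358 and 0.0492).

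Ndufa5, an accessory gene of the matrix arm, rose by 0.54 in KO (edgeR adjusted p = 0.0018) and by 0.32 in WT (adjusted p = 0.0402). The WT call was lost in 9 of the 16 fits that left out 1 library, with adjusted p-values of 0.0554 to 0.169 and the largest without WT normal 6. Ndufa13, which is also known as the cell death regulator GRIM-19, rose by 0.60 in KO and 0.56 in WT, but 30% of its exon bases overlap Tssk6. With library totals Ndufa5, Ndufa6, Ndufa13, Ndufb10 and Ndufv3 were below 0 in both genotypes, Ndufc2 in WT, and Ndufb3 in KO.

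All 9 genes of complex III rose in both genotypes, with medians of 1.09 in KO and 1.10 in WT. Cyc1, the haem subunit that hands electrons to cytochrome c, had 137, 141, 134 and 126 CPM in KO CTX and 64.4, 64.7, 64.4 and 57.1 CPM in KO normal libraries, and 136, 132, 134 and 148 CPM in WT CTX and 69.9, 58.7, 61.0 and 52.0 CPM in WT normal libraries. No library of one muscle came near the range of the other. The log2 fold change was 1.10 in KO (SE 0.09, edgeR adjusted p = 4.14e-08) and 1.19 in WT (SE 0.09, adjusted p = 1.89e-08). Uqcrq, a small subunit of the membrane part, moved most, by 1.42 in KO and 1.42 in WT (SE 0.16 each, adjusted p = 1.30e-06 and 1.38e-06). Uqcrfs1, the Rieske iron-sulfur protein, rose by 0.85 and 0.91, and Uqcrh, the hinge protein beside the haem subunit, by 0.88 and 0.89. Uqcrc2, a core protein without a redox group, moved least: 88.3 to 99.7 CPM in KO CTX against 47.5 to 73.1 CPM in KO normal libraries, and 90.7 to 99.5 CPM in WT CTX against 49.7 to 64.4 CPM in WT normal libraries, a rise of 0.63 and 0.72. Of its exon bases 19.7% overlap Pdzd9, and reads of both genes may not be separable there.

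In complex IV, 12 of 15 tested genes rose and 3 fell in both genotypes, with medians of 1.11 in KO and 1.04 in WT. The nuclear subunits around the catalytic core rose together. Cox4i1, the widely expressed isoform of the largest nuclear subunit, had 314, 352, 287 and 269 CPM in KO CTX and 172, 153, 131 and 110.5 CPM in KO normal libraries, and 310.2, 335, 298 and 319 CPM in WT CTX and 161, 149.99, 149 and 106 CPM in WT normal libraries. The muscles did not overlap, and the log2 fold change was 1.11 in KO (SE 0.15, edgeR adjusted p = 5.54e-06) and 1.16 in WT (SE 0.15, adjusted p = 3.65e-06). Cox5a and Cox5b, matrix-side subunits that each have no tissue isoform, rose by 0.98 and 1.26 in KO and by 1.04 and 1.17 in WT. Cox5b had the smallest p of the complex, with 56.6 to 68.7 CPM in KO CTX against 23.2 to 26.6 CPM in KO normal, and 55.4 to 64.0 CPM in WT CTX against 24.3 to 27.5 CPM in WT normal libraries (edgeR adjusted p = 7.65e-09 in KO and 1.49e-08 in WT). Cox6a1, Cox6b1, Cox7b and Ndufa4 rose by 1.13, 1.30, 1.32 and 1.16 in KO and by 1.02, 1.146, 1.20 and 1.20 in WT. Cox8a moved less, by 0.74 and 0.69, and Cox7c by 0.86 and 0.74.

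Complex IV has tissue isoforms, and 3 of them went another way. Cox4i2, which replaces Cox4i1 in lung and in vascular mural cells, Cox6a2, the heart and skeletal muscle isoform, and Cox6b2, the testis isoform, fell in CTX muscle. Cox6b2 had 0.576, 0.623, 0.392 and 0.727 CPM in KO CTX and 4.10, 2.98, 3.50 and 2.88 CPM in KO normal libraries, and 0.566, 0.613, 0.665 and 0.385 CPM in WT CTX and 3.32, 1.89, 2.42 and 2.19 CPM in WT normal libraries. These were 7 to 14 reads per library in KO CTX and 61 to 98 in KO normal, and 7 to 11 in WT CTX and 44 to 85 in WT normal libraries. The 2 muscles were well separated, with log2 fold changes of -2.52 in KO and -2.14 in WT (SE 0.27 and 0.28, edgeR adjusted p = 6.39e-07 and 4.35e-06). Cox4i2 had 1 to 11 reads per library in KO CTX and 23 to 98 in KO normal, and 1 to 5 in WT CTX and 18 to 77 in WT normal libraries, with fitted values of -2.82 in KO (95% interval -4.08 to -1.57) and -2.82 in WT (-4.18 to -1.45). Cox6a2 had 5 to 12 reads in KO CTX and 19 to 32 in KO normal, and 7 to 11 in WT CTX and 28 to 49 in WT normal libraries, with changes of -1.05 in KO and -1.49 in WT (adjusted p = 0.00932 and 0.000705). Cox8b, another heart and skeletal muscle isoform, had at most 4 reads in any library and none in WT CTX libraries.

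These 3 isoforms were a minor part of their pairs. Shares of a pair were taken per length, with the CPM of each gene divided by its annotated exon bases. On that scale Cox4i2 made up 0.244% ± 0.14 of the Cox4i pair in KO CTX, 0.142% ± 0.08 in WT CTX, 3.56% ± 1.14 in KO normal and 2.06% ± 1.09 in WT normal libraries (SD, n = 4 each). Cox6b2 made up 0.275%, 0.266%, 3.77% and 2.53% of its pair in the same order of groups, and Cox6a2 0.257%, 0.277%, 1.17% and 1.57%. Cox7a1, the muscle isoform of the Cox7a pair, did not follow: it had 1.67, 1.64, 1.62 and 1.82 CPM in KO CTX and 0.377, 0.496, 0.597 and 0.613 CPM in KO normal libraries, and 1.81, 1.28, 1.59 and 1.92 CPM in WT CTX and 0.625, 0.602, 0.663 and 0.506 CPM in WT normal libraries. It rose by 1.69 in KO and 1.45 in WT (edgeR adjusted p = 2.27e-05 and 9.12e-05), close to its widely expressed partner Cox7a2, which rose by 1.53 and 1.36, so that the share of Cox7a1 in the pair stayed between 3.19% and 3.48% on average in the 4 groups. Cox7b2 and Cox8c, both known as testis isoforms, had no read.

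**Figure D3:**
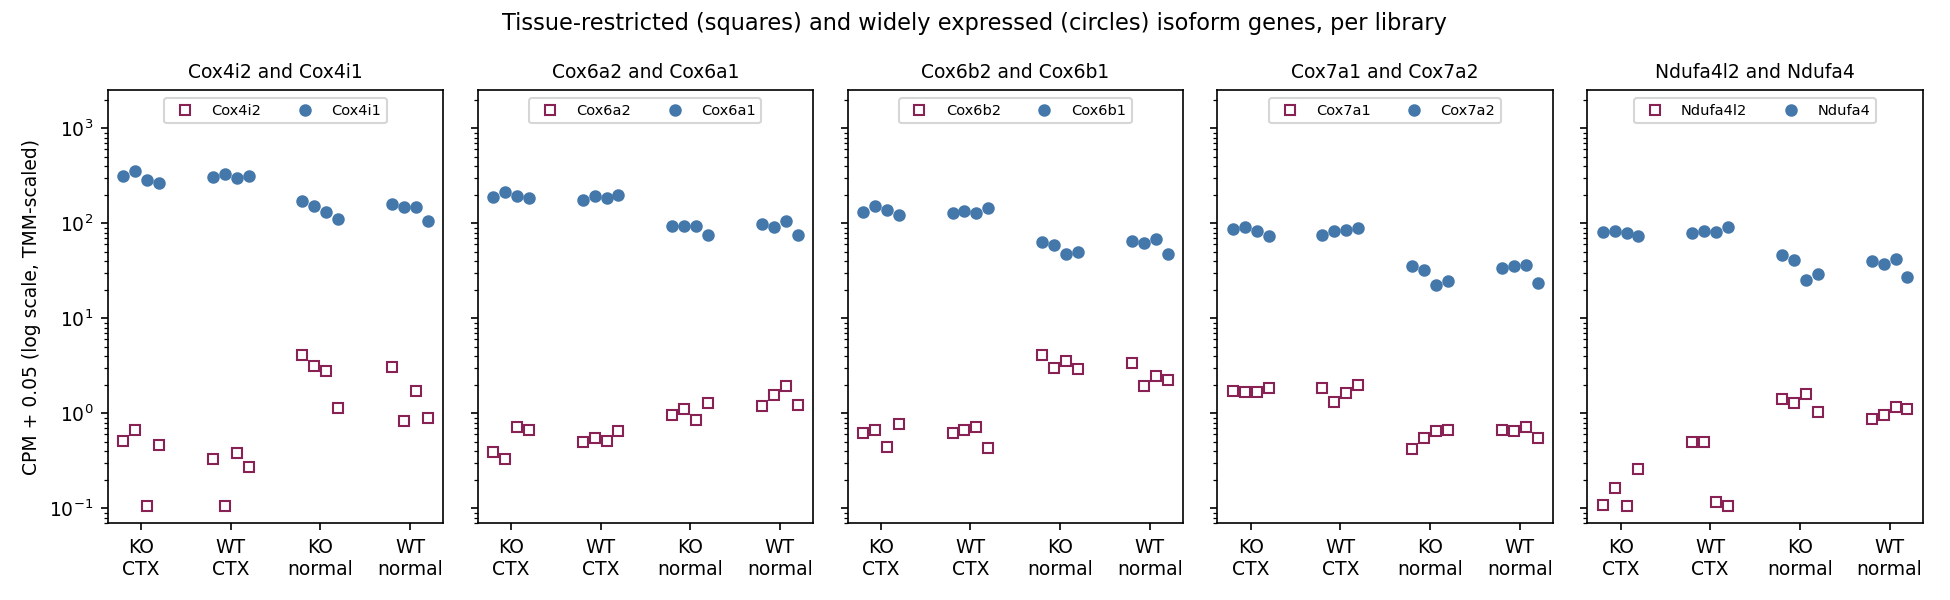
CPM plus 0.05 on a log axis in each library for 4 tissue-restricted complex IV isoforms and Ndufa4l2 (open squares) and their widely expressed partners (filled circles). Cox4i2, Cox6a2, Cox6b2 and Ndufa4l2 are lower in CTX libraries while their partners are higher, and Cox7a1 is higher together with Cox7a2.

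Markers of muscle fibres and of most other cell types listed were also lower in the CTX libraries. The counts below stand beside 40.2% of all genes called lower in KO and 39.4% in WT, and 33.3% called higher in each. Of 12 tested muscle fibre markers, 11 fell in KO and 10 in WT, with a summed level of 9.85 to 13.8 CPM in KO CTX, 10.8 to 14.2 CPM in WT CTX, 38.0 to 78.6 CPM in KO normal and 38.5 to 78.1 CPM in WT normal libraries, and with Myh7 at 0 in all CTX libraries. All 7 tested mural cell markers fell in both genotypes, with sums of 10.2 to 11.6 CPM in KO CTX, 12.4 to 21.1 CPM in WT CTX, 49.3 to 90.05 CPM in KO normal and 40.6 to 56.6 CPM in WT normal libraries, and with Higd1b at 0 in KO CTX. Endothelial sums were 68.9 to 87.1 CPM in KO CTX, 73.5 to 86.3 CPM in WT CTX, 198 to 275 CPM in KO normal and 150.3 to 203 CPM in WT normal libraries, with 9 of 10 markers falling in KO and 8 in WT. T and NK cell sums were 4.19 to 11.8 CPM in KO CTX, 1.33 to 7.82 CPM in WT CTX, 138 to 312 CPM in KO normal and 83.7 to 202 CPM in WT normal libraries, and all 9 tested markers fell in both genotypes. Fibroblast markers fell for 7 of 8 in KO and 6 of 8 in WT, dendritic cell markers for 6 of 7 in both, and B cell markers for 4 of 4 in KO and 3 of 4 in WT. Of 7 tested neutrophil markers 0 were called lower in KO and 4 in WT, with median log2 fold changes of -1.49 and -2.40. Their sums spread widely in normal muscle: 345 to 1219 CPM in KO CTX, 222 to 515 CPM in WT CTX, 335 to 6361 CPM in KO normal and 390 to 4355 CPM in WT normal libraries. The difference between the KO and WT changes was called for 0 of the 7. All 11 immediate early genes, which dissociation of tissue can induce, fell in both genotypes. Of 13 pan-macrophage markers 6 rose and 6 fell in KO, and 7 rose and 6 fell in WT. Of 6 erythroid markers the 4 globin genes were at 0 in all libraries, and the other 2 were not called in either genotype. The erythroid sum was 6.43 to 11.4 CPM in KO CTX, 5.18 to 11.4 CPM in WT CTX, 0.52 to 13.2 CPM in KO normal and 1.01 to 7.44 CPM in WT normal libraries. The part of these other cells in the isoform levels was not tested, and in sorted bulk samples fewer cells of a type and less RNA per cell cannot be told apart.

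All 15 complex V genes rose in both genotypes, with medians of 1.12 in KO and 1.17 in WT. Atp5b, the catalytic beta subunit, had 1216, 1327, 1249 and 1237 CPM in KO CTX and 604, 614, 635 and 458 CPM in KO normal libraries, and 1232, 1279.9, 1222 and 1307 CPM in WT CTX and 599, 600.1, 573 and 476 CPM in WT normal libraries. CTX and normal libraries were far apart, with the lowest values in KO normal 5 and WT normal 6. Its log2 fold change was 1.12 in KO (SE 0.12, edgeR adjusted p = 3.53e-07) and 1.17 in WT (SE 0.12, adjusted p = 2.36e-07), and its partner in the catalytic ring, Atp5a1, rose by 0.94 and 1.001. Atp5c1, the gamma subunit that turns inside the ring, rose less, by 0.65 and 0.78. Atp5e, the epsilon subunit at the foot of the same shaft, rose by 1.56 in both genotypes (SE 0.23 each, adjusted p = 1.65e-05 in KO and 1.69e-05 in WT). Atp5h, a subunit of the stator whose promoter is shown above, rose by 0.77 in KO and 0.73 in WT, the smallest change of the complex in WT.

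Atp5g1, Atp5g2 and Atp5g3 encode the same mature c subunit of the membrane rotor with different import sequences, and they changed by unequal amounts. Atp5g1 had 54.0, 59.2, 54.6 and 48.8 CPM in KO CTX and 17.1, 18.0, 17.9 and 13.7 CPM in KO normal libraries, and 48.3, 52.6, 48.2 and 58.1 CPM in WT CTX and 17.4, 16.3, 18.3 and 12.8 CPM in WT normal libraries. The CTX libraries lay well above all normal ones. The rise of 1.70 in KO and 1.67 in WT had the smallest p of the complex (SE 0.12 each, edgeR adjusted p = 9.16e-09 and 1.02e-08). Atp5g3 rose by 1.29 and 1.27. Atp5g2 had 23.7, 23.8, 23.4 and 22.8 CPM in KO CTX and 16.99, 16.4, 16.5 and 13.4 CPM in KO normal libraries, and 24.4, 24.98, 23.8 and 27.5 CPM in WT CTX and 15.4, 15.7, 14.0 and 13.8 CPM in WT normal libraries, a rise of 0.56 in KO and 0.77 in WT that was -0.05 with library totals in KO. Shares within the sum of the 3 genes were taken per length, with each CPM divided by annotated exon bases (4912 for Atp5g1, 1675 for Atp5g2 and 2181 for Atp5g3). On that scale Atp5g1 held 9.89% in KO CTX, 9.06% in WT CTX, 7.05% in KO normal and 6.65% in WT normal libraries. Atp5g2 held 12.6%, 12.9%, 19.7% and 17.9% in the same order. CTX and normal libraries did not overlap in either share. Of the 50-base windows of Atp5g2 transcripts, 38.3% recur in another gene, and of Atp5g1 10.2%, so reads may have been lost or moved for these genes.

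The 4 genes named like subunits but kept apart were not among the rising members. Cox7a2l, a factor that joins complexes III and IV into supercomplexes, had 22.0, 23.2, 20.2 and 19.6 CPM in KO CTX and 40.1, 33.3, 28.7 and 23.7 CPM in KO normal libraries, and 21.5, 25.7, 22.3 and 22.4 CPM in WT CTX and 33.7, 25.8, 27.7 and 21.8 CPM in WT normal libraries. The KO libraries did not overlap between muscles, and the WT libraries did. It fell by 0.57 on the log2 scale in KO (SE 0.15, edgeR adjusted p = 0.00315), and the value in WT was -0.25 (95% interval -0.57 to 0.07, adjusted p = 0.15). In WT it was called lower by edgeR with the replicate block (-0.45, adjusted p = 0.0146) and among male libraries (-0.38, adjusted p = 0.0355). The difference between the 2 changes was -0.32 (interval -0.77 to 0.13, adjusted p = 1). Atp5sl, which is known as a complex I assembly factor, fell to 7.53 to 9.92 CPM in KO CTX against 13.4 to 20.1 CPM in KO normal libraries, and to 6.65 to 9.73 CPM in WT CTX against 14.5 to 16.3 CPM in WT normal libraries (log2 fold change -1.02 and -0.90, adjusted p = 1.42e-05 and 5.29e-05). Atp5s, known as coupling factor B, changed by -1.32 in KO and -1.25 in WT. Ndufa4l2, a hypoxia-induced relative of Ndufa4 that is also abundant in pericytes, had 1 to 4 reads per library in KO CTX and 21 to 37 in KO normal, and 1 to 8 in WT CTX and 21 to 29 in WT normal libraries, with fitted changes of -3.47 (interval -4.65 to -2.30) in KO and -1.89 (-2.95 to -0.84) in WT.

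Between genes, levels were compared per kilobase of annotated exon (RPKM), which takes every annotated exon of a gene as its length. On that scale Atp5b (297 ± 11.5 in KO CTX and 297 ± 9.51 in WT CTX libraries), Cox6a1 (279 ± 18.0 and 267 ± 13.7) and Atp5a1 (266 ± 10.6 and 269 ± 9.40) were highest in CTX muscle (SD, n = 4 each). The same 3 led in normal muscle, with Atp5a1 at 139 ± 20.6 in KO and 134 ± 16.9 in WT, Atp5b at 136 ± 19.0 and 133 ± 13.8, and Cox6a1 at 127 ± 12.6 and 132 ± 18.6, which did not differ beyond their spread. Cox4i1, Cox6b1 and Cox8a filled the next places in all 4 groups. The median gene of complex III lay at 62.4 in KO CTX and 63.9 in WT CTX, against 29.1 in KO normal and 28.6 in WT normal libraries, above the medians of complex I of 32.2, 31.8, 17.8 and 17.8 in the same order.

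No member was called between KO and WT. In CTX muscle 0 of 78 members passed edgeR's adjusted threshold and 0 had an unadjusted p under 0.05, where 0.00733% of all genes were called higher, 0% were called lower and 6.67% had such an unadjusted p. In normal muscle both counts were 0 again, where 0% of all genes were called and 2.86% had an unadjusted p under 0.05. For the difference between the genotype effects both counts were 0, where 0% were called and 4.73% had such a p. DESeq2's Wald test called 0 members in each of the 3 comparisons, where 0.125% of all genes were called higher and 0.191% lower in CTX muscle, 0% either way in normal muscle, and 0.0673% higher and 0.291% lower for the difference.

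The intervals limit how large a difference could be. Among the 72 members with a mean of at least 5 CPM, log2 differences of KO over WT were -0.15 to 0.08 in CTX muscle, with the 95% interval inside ±0.5 for 70 of them. In normal muscle they were -0.24 to 0.21, with 66 intervals inside ±0.5. For the same 72 members with the replicate numbers fitted as a block on the 8 normal libraries, normal muscle gave -0.50 to 0.13, with 41 intervals inside ±0.5. For the difference between the genotype effects they were -0.32 to 0.22 without the block, with 47 inside. By complex, the medians were -0.01, -0.04, 0.01 and -0.01 in CTX muscle for complexes I, III, IV and V, and 0.01, -0.03, -0.05 and -0.01 in normal muscle. Summed over complexes I to V, KO CTX libraries averaged 7534 ± 424 CPM and WT CTX libraries 7590.1 ± 357 CPM, and KO normal libraries 3769 ± 515 CPM and WT normal libraries 3730.2 ± 463 CPM (SD, n = 4 each).

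In CTX muscle the smallest p-values were those of Ndufa4l2, with a log2 difference of -1.19 on 1 to 8 reads (edgeR adjusted p = 0.843), Atp5g2 and Atp5s. Between genotypes 1 member did not overlap in CTX muscle, where 1.83% of all genes lay higher and 3.87% lower without overlap, and 0 did in normal muscle, where 0.667% lay higher and 0.418% lower. That member was Atp5g2, at 22.8 to 23.77 CPM in KO CTX against 23.79 to 27.5 CPM in WT CTX libraries. The difference of -0.11 (95% interval -0.30 to 0.09) gave p = 0.0286 in an exact two-sided permutation test, the smallest that 4 against 4 libraries can give, and an edgeR adjusted p = 0.954. In normal muscle they were those of Cox7c, at 15.4 to 22.3 CPM in KO and 19.3 to 25.1 CPM in WT libraries (log2 difference -0.23), Cox6b2 (0.45) and Ndufa5 (-0.24), each with an edgeR adjusted p = 0.991. For the difference between the genotype effects they were those of Ndufa4l2 (-1.58), Atp5g2 (-0.21) and Cox7a2l, each with an edgeR adjusted p = 1.

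In normal muscle, libraries with the same number deviated from their group means together (r = 0.244 to 0.644 over the 3 shared numbers). The numbers were therefore also fitted as a block on the 8 normal libraries, an alternative chosen after that check. KO normal 1 with WT normal 2 (r = 0.467) and KO normal 5 with WT normal 6 (r = 0.588) also deviated together, so the check does not show that numbers pair libraries. The other pairs of unlike number were negative. With the block 71 of 78 members were lower in KO, with a median log2 difference of -0.19 against 0.002 over all genes. With the block 0 of the 78 were called (smallest edgeR adjusted p = 0.649), and 20 of 78 (25.6%) had an unadjusted p under 0.05, all 20 lower in KO, where 7.33% of all genes had such a p. The block compares KO normal 2, 3 and 5 with WT normal 2, 3 and 5, and so holds KO normal 5 but not WT normal 6, the 2 libraries with the highest Malat1.

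**Figure D4:**
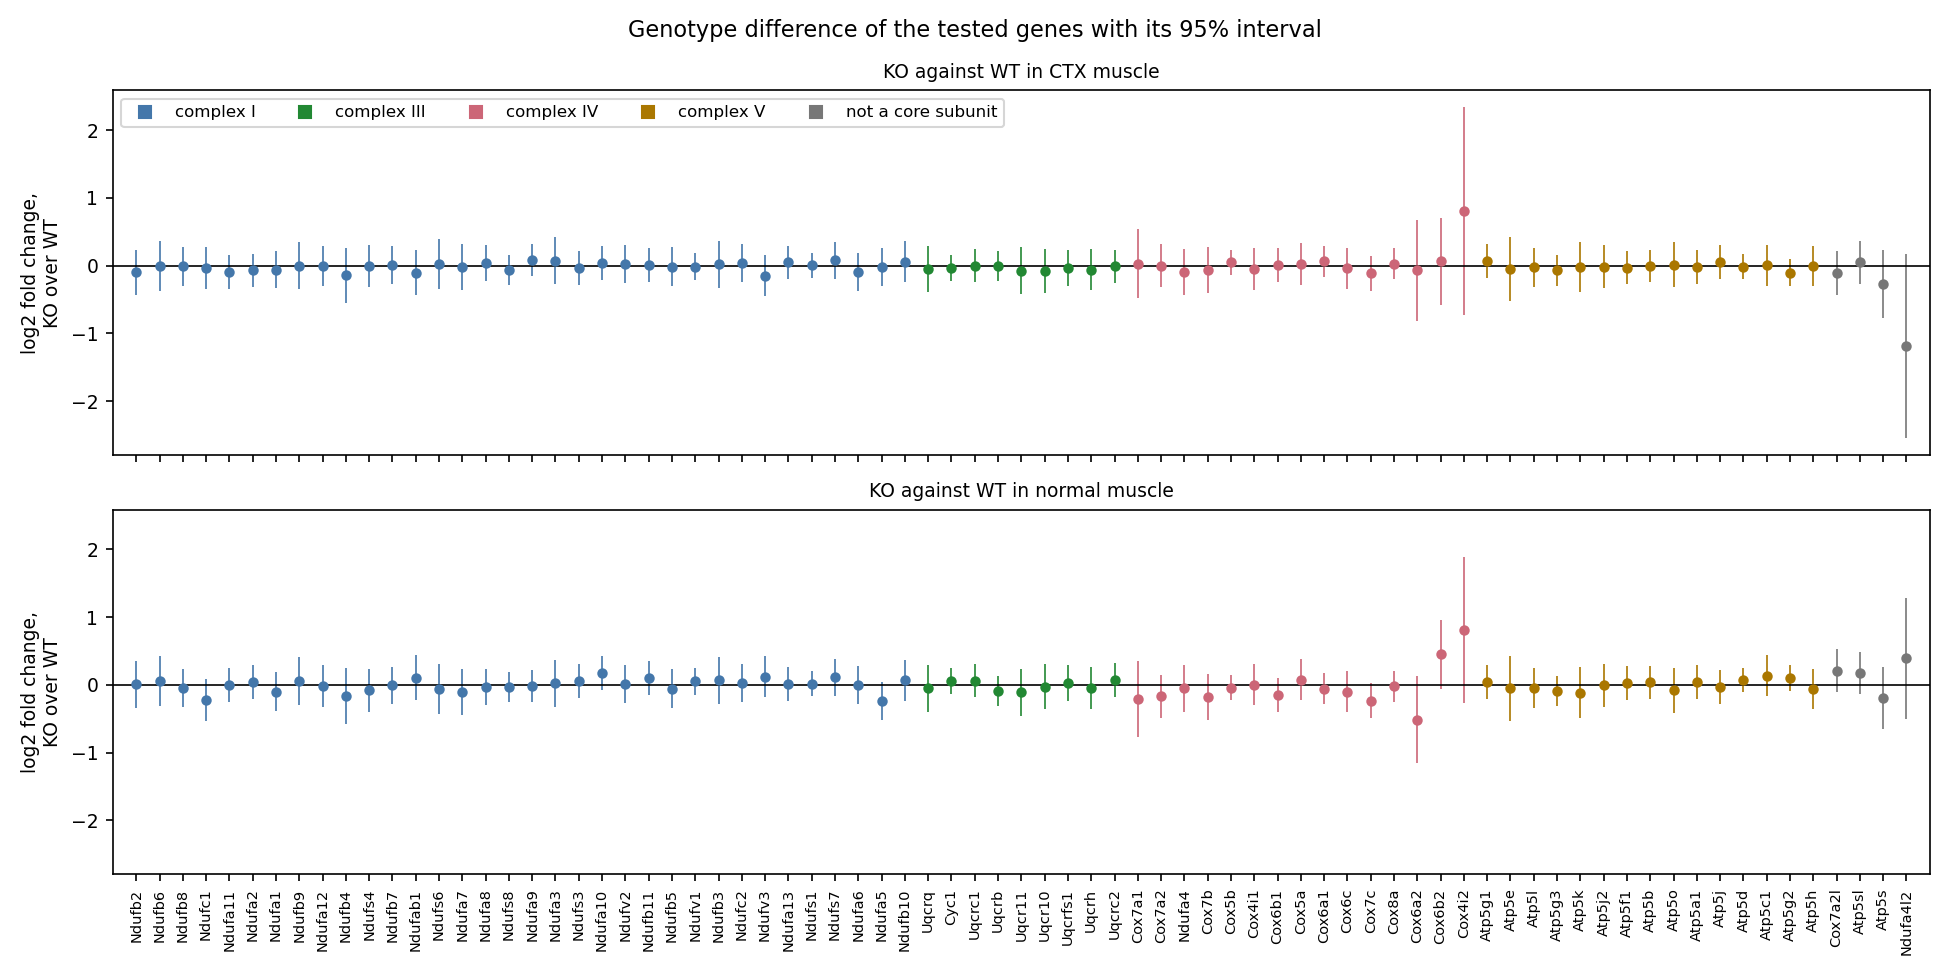
Log2 fold change of KO over WT with its 95% interval for 77 of the 78 tested genes, in CTX muscle (top) and normal muscle (bottom), in the gene order of the injury plot. Abundant members lie within -0.24 to 0.21, and only low-count genes such as Cox4i2 and Ndufa4l2 lie farther out with wide intervals.

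Other genes of the pathway moved unevenly with injury. All 4 genes of complex II, which feeds electrons from succinate, rose in WT and 3 of 4 in KO: Sdhb rose by 0.87 in KO and 1.06 in WT (edgeR adjusted p = 3.19e-06 and 4.01e-07), while the flavoprotein Sdha had 0.18 in KO (adjusted p = 0.0818) and rose by 0.21 in WT (adjusted p = 0.0419). The membrane anchors Sdhc and Sdhd rose by 0.97 and 0.60 in KO and by 1.003 and 0.58 in WT. Of 8 genes for cytochrome c, nucleotide and phosphate carriers and porins, 7 rose in both genotypes, among them the porin Vdac2 by 1.21 and 1.22. Of 11 genes for mitochondrial import and chaperones, 9 rose and 2 fell in both genotypes, the import channel subunit Timm17a rising by 1.63 in KO and 1.71 in WT. Assembly factors, which build the complexes without staying in them, came in 4 lists: of 15 for complex I, 3 rose and 6 fell in KO (all genes 33.3% and 40.2%) and 3 rose and 3 fell in WT (all genes 33.3% and 39.4%), with medians of -0.07 and -0.23 beside 0.87 and 0.88 for the subunits. Of 20 for complex IV, 11 rose and 2 fell in both genotypes, led by the copper chaperone Cox17 with rises of 1.67 and 1.63. Of 6 for complex III, 2 rose, among them Ttc19 by 0.93 and 1.148, and 1 fell in both genotypes, and of 3 for complex V, 2 rose, among them Atpaf2 by 0.46 and 0.57, and 1 fell in both.

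Of 13 regulators of mitochondrial biogenesis 4 rose and 3 fell in KO and 6 rose and 2 fell in WT, where 33.3% of all genes rose in each genotype and 40.2% and 39.4% fell. Ppargc1b, the coactivator PGC-1beta, averaged 1.39 CPM in KO CTX against 12.1 CPM in KO normal muscle and 1.29 CPM in WT CTX against 12.7 CPM in WT normal muscle, log2 fold changes of -3.11 and -3.28 (SE 0.29 each, edgeR adjusted p = 1.09e-07 and 6.86e-08). Among the genes of the factors whose letters were searched in the promoters, Gabpa rose by 0.90 in KO and 0.92 in WT, and Nrf1 by 0.46 and 0.56. Yy1 rose by 0.35 in WT (edgeR adjusted p = 0.0236) and was not called in KO (0.19, adjusted p = 0.188). For rises smaller than the shift of the all-gene median between scalings, as for Sdha, Sdhd, Atpaf2, Nrf1 and Yy1, the direction may depend on the scaling. Values of these genes with library totals were not computed. Gabpa overlaps Atp5j, a member, which may blur the counts of both. No gene of these lists was called between KO and WT in either muscle.

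**Figure D5:**
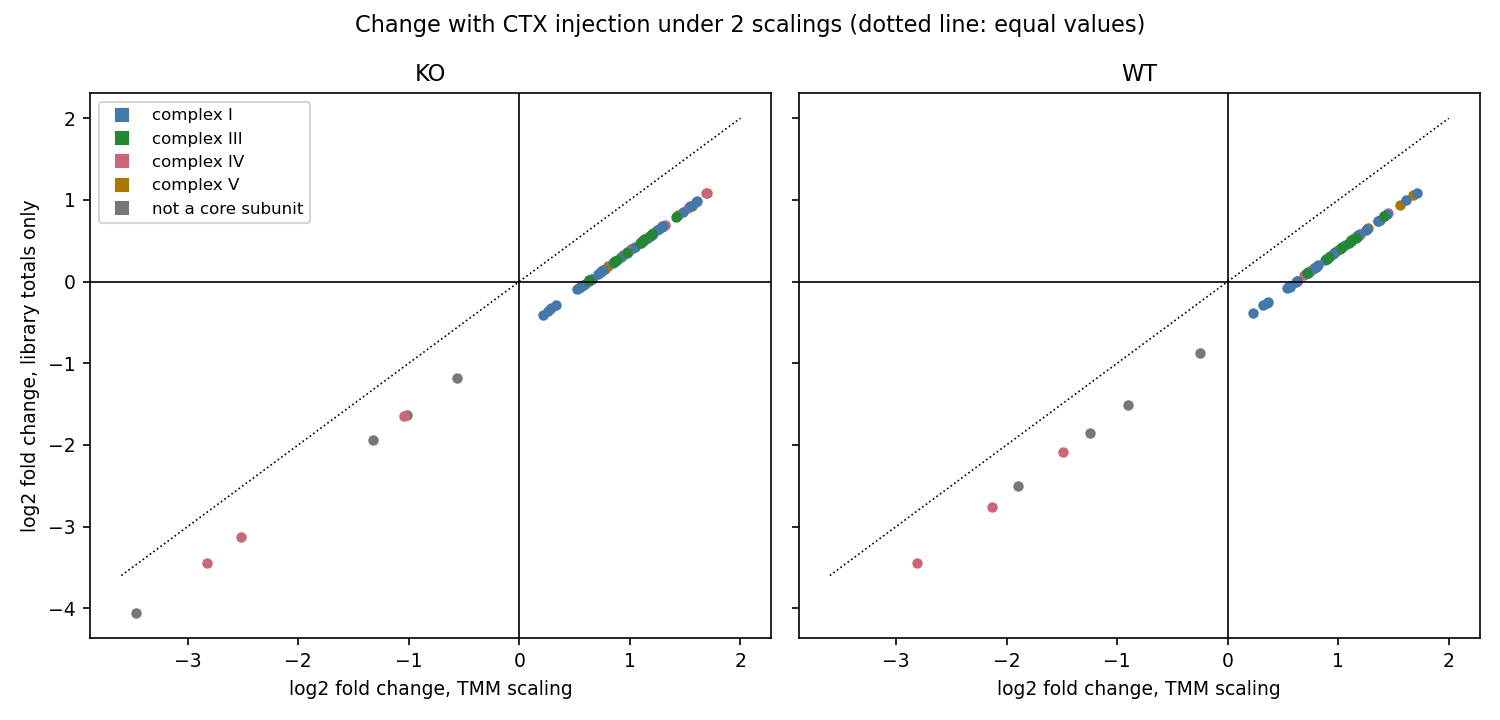
Log2 fold change of CTX over normal muscle for 77 of the 78 tested genes with TMM scaling (x) and with library totals only (y), in KO (left) and WT (right), coloured by complex. Points run parallel to the dotted line of equal values and below it, and several complex I genes lie above 0 on x and below 0 on y.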

How the data were processed

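Reads of F4/80+ muscle macrophages were counted per gene by the authors, and the deposited table holds raw counts of 24421 symbols in 16 libraries. Per the labels' protocols, RNA came from a Qiagen micro kit and SMART-Seq V4, which does not mark strand. Per the submitters' processing notes, reads were handled with HISAT2 (2.1.0), cutadapt (1.18), FastQC (0.11.7) and Subread's featureCounts (1.6.2) on mm10; their settings and the annotation are not given in the sources used here. Genes were filtered with filterByExpr, scaled with TMM and tested with edgeR 4.0.16 (quasi-likelihood, 1 coefficient per group over all 16 libraries, Benjamini-Hochberg over 13649 genes, threshold 0.05), and the code was tested on simulated counts. CPM are TMM-scaled. Alternatives were library totals, RLE, no filter, DESeq2 1.42.0, male libraries, a replicate block, each library left out, and assignment to complexes by symbol. One member is in all counts, medians and sums but is not reported singly here. Members and lists were chosen with earlier results of these data known. Genes were named by rule: the 2 largest and 2 smallest WT injury changes of each complex (complex I by its modules), members not called or falling, catalytic subunits, isoform pairs, the 3 smallest p-values of each genotype comparison, complex II, and the smallest p of each other list; genes of the searched factors were added afterwards. GENCODE M21 (mm10) matched 78 of 79 members. Totals of 17051892 to 23097420 counts per library leave genes under about 1 CPM with wide intervals.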

Additional observations from a re-analysis of the deposited data

Results flagged for a closer look

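In a group of 4 libraries, a value was singled out where its gap to the nearest other library was larger, as a part of the group's range, than Dixon's 95% critical value. This met 24 of 371 groups tested (6.47%), where chance gives about 1 in 20. In KO normal muscle, library 5 was the low one for summed complex V (1341 CPM), the mural cell markers (49.3 CPM), Atp5g3 (64.7 CPM), Cox5b (23.2 CPM), Cox6a1 (76.1 CPM), Cox8a (53.6 CPM) and Cyc1 (57.1 CPM). In WT normal muscle, library 6 was the low one for summed complex IV (505 CPM), Atp5g3 (64.4 CPM), Atp5k (6.96 CPM), Cox5a (61.4 CPM), Ndufa2 (21.7 CPM), Ndufc1 (9.96 CPM), Uqcr10 (16.6 CPM) and Uqcrq (19.5 CPM). In WT CTX muscle, library 4 was the high one for Cox7c (42.5 CPM), Ndufa8 (68.0 CPM), Ndufa9 (95.9 CPM), Ndufs7 (60.4 CPM) and Ndufv2 (88.5 CPM). In KO CTX muscle, library 2 was the high one for Atp5s (2.09 CPM), and WT normal 5 was the high one for Atp5s (5.74 CPM). Cox8b, otherwise at 0 in its group, had 0.113 CPM in KO CTX 2 and 0.128 CPM in KO normal 3, on 2 and 3 reads. The low libraries were those with the highest Malat1 of their group and the high ones of CTX muscle those with the lowest. The high ones of normal muscle, WT normal 5 and KO normal 3, did not have the lowest Malat1 of their groups. Flags of genes and sums in the same library are not independent, and the part of Malat1 was not tested.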

How the results depend on the processing

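Scaling was the choice that moved the injury results. With library totals only, members called higher in CTX muscle numbered 43 in KO and 45 in WT, against 68 and 70 with TMM, where 14.1% and 14.2% of all genes were, against 33.3% in each. The ratio of summed levels, CTX over normal, rested on the same choice: as TMM-scaled CPM it was 1.81, 2.03, 2.14, 2.05 and 1.999 in KO for complexes I, III, IV, V and all 4, and 1.84, 2.103, 2.08, 2.12 and 2.04 in WT, against 1.18, 1.33, 1.39, 1.34 and 1.30 in KO and 1.20, 1.37, 1.36, 1.38 and 1.33 in WT as shares of counts. Among the members reported singly, 9 in KO and 8 in WT turned direction with totals and were called with TMM, with totals or with both. In KO these were Atp5g2 (-0.049), Ndufa13 (-0.025), Ndufa5 (-0.076), Ndufa6 (-0.36), Ndufb10 (-0.41), Ndufb3 (-0.045), Ndufs1 (-0.09), Ndufs7 (-0.29) and Ndufv1 (-0.054). In WT they were Ndufa13 (-0.06), Ndufa5 (-0.29), Ndufa6 (-0.27), Ndufb10 (-0.39), Ndufc2 (-0.003), Ndufs1 (-0.084), Ndufs7 (-0.25) and Ndufv3 (-0.064). Ndufv3 in KO also lay below 0 with totals, but was called with neither scaling. By construction totals leave out the TMM factors that differ between the muscles.

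With RLE factors 68 members rose in KO and 69 in WT (32.2% and 32.5% of all genes), without the filter 68 and 70 (24.6% and 24.3%), with DESeq2 68 and 70 (32.5% and 32.8%), and among male libraries 67 and 68 (32.2% and 29.7%). Leaving out each library gave 67 to 70 in KO and 67 to 70 in WT, where 31.4% to 33.1% and 31.5% to 33.2% of all genes rose, with 7 and 6 members falling throughout, and 0 called between genotypes in every such fit. With the replicate block on all libraries 67 rose and 7 fell in KO and 66 rose and 7 fell in WT (of all genes 33.0% and 38.2%, and 31.4% and 34.9%), where Ndufa5, Ndufa6, Ndufb3 and Ndufs7 were lost and Cox7a2l was called lower in WT (-0.45, edgeR adjusted p = 0.0146); in KO Ndufs7 was lost. The block called 0 members between genotypes. Same-numbered libraries deviated together only in normal muscle (r = 0.244 to 0.644 there, and -0.124 to 0.068 in the other comparisons). Of differently numbered normal libraries, KO normal 1 and WT normal 2 correlated at 0.467 and KO normal 5 and WT normal 6 at 0.588. The other such pairs were negative. The check therefore does not show that numbers pair libraries. Among male libraries Ndufs7 was lost in KO and Ndufa5 and Ndufa6 in WT, and Cox7a2l was called lower in WT (-0.38, adjusted p = 0.0355). Assigning members by symbol alone moved the WT median of complex V to 1.12 and of complex IV to 1.02. Depth limits Cox4i2, Cox6a2, Cox6b2, Cox7a1, Cox8b and Ndufa4l2, which had few reads in some or all groups. Sequence shared with other genes limits 12 members, with at least 10% of 50-base windows found elsewhere. Exons of other annotated genes overlap at least 10% of the exon bases of 11 members, and the libraries do not mark strand.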
